A study of Mus musculus with 4 samples.

Results

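The 46 genes described here encode the machinery that builds and maintains the primary cilium: the intraflagellar transport trains and their motors, the BBSome and its chaperonin, the transition zone, and further proteins such as those of the distal appendage and ciliary membrane. They were chosen by name from the 54532 gene IDs of the count table. Of 49 symbols that matched the name rule, 46 were protein-coding in GENCODE M21, and all 46 had at least 20 counts summed over the libraries. The lowest summed count was 564 (Bbs5) and the highest 10163 (Dync2h1). The other 3 matches were not protein-coding in that annotation: the antisense genes B9d1os and Ift88os, and Tctn2, which M21 lists as a processed transcript. Levels were measured in microdissected cranial neural tubes of mouse embryos at embryonic day 10.5, with 1 library per embryo and 2 libraries per group. DCKO embryos were Lats1 flox/flox; Lats2 flox/flox and carried E2f1 Tg(Wnt1-cre)2Sor/+, so that Cre recombinase can delete both Hippo pathway kinases where Wnt1 regulatory sequences drive it. Control embryos had no E2f1 Tg(Wnt1-cre)2Sor/+, and whether they carried floxed alleles is not stated in the sources used here. Wnt1-driven Cre acts in part of the neural tube, including its dorsal part, and in the crest cells that leave it. DCKO tissue can therefore also hold cells that keep Lats1 and Lats2. Deletion cannot be told apart from the presence of the transgene.

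The primary cilium is a single microtubule-based projection that grows from the mother centriole of most non-dividing or interphase cells. IFT-B trains carry cargo towards the tip with kinesin-II, IFT-A trains and dynein-2 return it to the base, and the BBSome rides on the trains to take membrane receptors out of the cilium. The transition zone at the base acts as a gate, and in the neural tube the cilium is the site where Hedgehog signals are processed into Gli activator or repressor.

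Library totals ranged from 41798361 to 55137810 counts. The most abundant gene ID, Gm26917, took 22.7% and 26.7% of counts in the DCKO libraries, against 11.0% and 9.99% in the Control libraries. Lats1 had 30.0 and 29.6 CPM (counts scaled to the TMM-adjusted library total) in DCKO and 44.2 and 65.5 CPM in Control, and missed the threshold of 0.05 (adjusted p = 0.0538, log2 fold change -0.88, SE 0.23). It passed in DESeq2 (0.00643), with library totals (0.0179) and in limma on log2(TPM + 1) (0.0401), and with a library left out its adjusted p ran from 0.0657 to 0.280. Lats2 had 21.2 and 35.3 CPM in DCKO and 26.7 and 13.3 CPM in Control, and its groups overlapped (log2 fold change 0.50, SE 0.41, adjusted p = 0.426). Gene-level counts include exons outside a floxed segment, so these values are a limited check of the genotype. Xist, expressed from the inactive X chromosome of females, had 8 and 22 counts in DCKO and 10837 and 7786 counts in Control, so sex and genotype cannot be told apart. Of the 46 cilium genes, 0 lie on the X or Y chromosome, and a difference of autosomal genes by sex was not tested.

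The cilium genes were expressed at the level of a typical gene of this tissue. Their median TPM (transcript abundance scaled by length and library) over all libraries was 10.1, and that of the 14692 tested protein-coding genes was also 10.1. They were longer and had more exons, with a median of 17 exons in the longest transcript against 9. Ift27 had the highest level, 31.2 and 30.9 TPM in DCKO and 70.8 and 75.0 TPM in Control, and B9d1 (mean 37.5 TPM over all libraries) and Ift52 (36.5 TPM) followed. Among the lowest were Bbs10 (mean 3.05 TPM) and Bbs12 (3.79 TPM). Bbs10 had 0.721 and 3.25 TPM in DCKO and 4.80 and 3.43 TPM in Control, so the DCKO libraries differed from each other more than the Control libraries did.

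**Figure D1:**
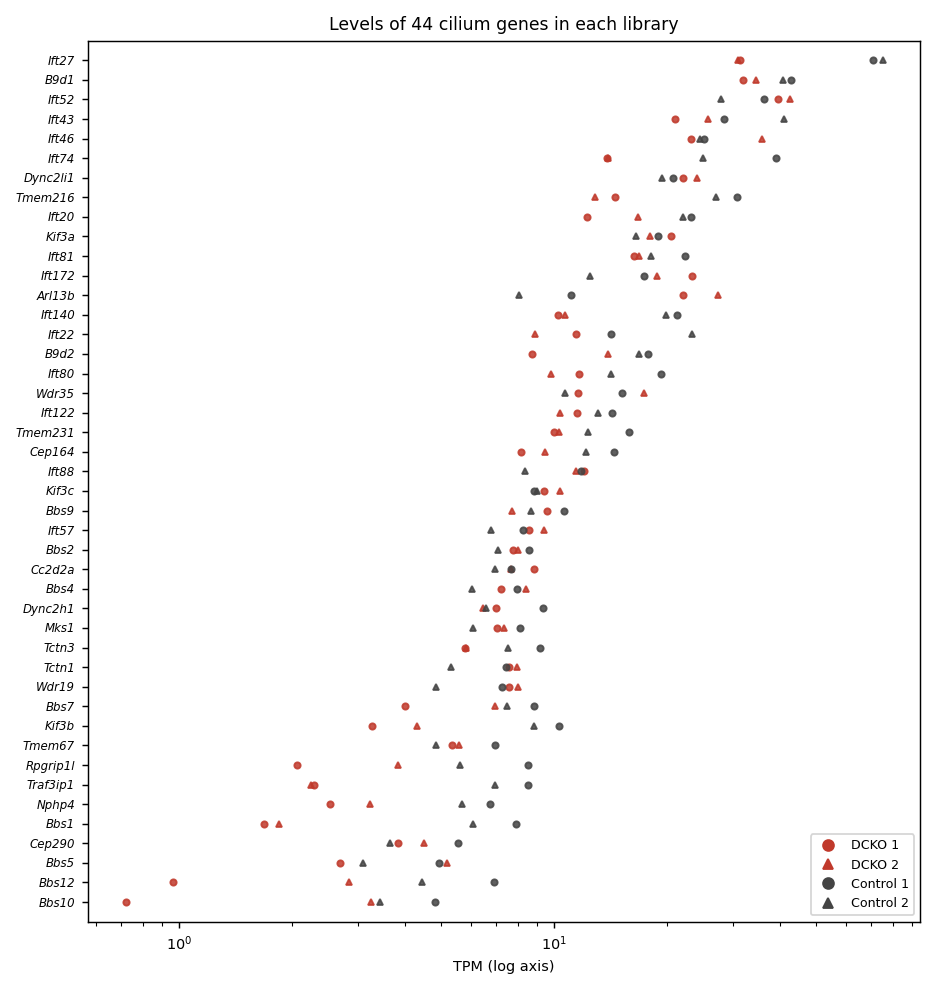
Level of each of 44 of the cilium genes in each library, in TPM on a log axis, ordered by the mean over all libraries; circles are replicate 1 and triangles replicate 2 of DCKO (red) and Control (grey). Ift27 sits at the top with DCKO near 31 and Control above 70 TPM, and the DCKO 1 values of Bbs12 and Bbs10 stand far to the left of the other libraries.

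Many cilium genes in vertebrates carry an X-box in their promoter, the motif bound by RFX transcription factors. It was searched in RefSeq promoter windows (build GRCm38.p6), which run from 250 bases before to 50 bases after an annotated start. At least 1 window was given for 39 of the 46 members and for 27025 genes in all, with 32851 windows in total. A gene with several windows, such as Nphp4 with 3, was counted if any of them held a match. The palindromic form GTNNCCNNGGNNAC, which reads the same on both strands, was present in the windows of 11 of the 39 members (28.2%), against 583 of all 27025 genes (2.16%). The shorter GTTGCC, searched on both strands, lies within the palindromic match in 6 members and was present in 22 of 39 members (56.4%), against 3821 genes (14.1%). The windows of these 11 members held 12 palindromic matches, 2 of them in Ift22, and 1 per gene is shown to let the motif be read beside the values, with the match in capitals and flanking bases in lower case, 5′ to 3′ on the strand of the gene.
Bbs1, chr19:4906605-4906634, minus strand: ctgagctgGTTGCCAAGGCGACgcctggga
Bbs4, chr9:59353464-59353493, minus strand: ctcagctgGTCGCCCGGGAAACggtcggct
Bbs7, chr3:36613489-36613518, minus strand: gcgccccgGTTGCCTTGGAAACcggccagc
Ift22, chr5:136908109-136908138, plus strand: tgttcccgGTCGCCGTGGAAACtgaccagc
Ift57, chr16:49699199-49699228, plus strand: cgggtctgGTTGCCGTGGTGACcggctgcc
Mks1, chr11:87853183-87853212, plus strand: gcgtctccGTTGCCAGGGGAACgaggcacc
Nphp4, chr4:152477903-152477932, plus strand: cggtgcccGTCTCCTAGGTAACgcgccagc
Tctn1, chr5:122264411-122264432, minus strand: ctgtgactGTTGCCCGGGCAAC
Tmem216, chr19:10555723-10555752, minus strand: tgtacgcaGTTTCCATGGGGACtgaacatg
Tmem231, chr8:111933781-111933810, minus strand: cgccgtcgGTTGCCGTGGAGACtcggcgct
Wdr19, chr5:65199654-65199683, plus strand: tttgcacgGTCTCCTGGGTGACgagaacgc

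Among members past the threshold described below, 4 had only the short form: Traf3ip1, Arl13b, Ift27 and Ift140. The first of these and the only member that rose are shown, with GTTGCC in capitals.
Traf3ip1, chr1:91494581-91494602, plus strand: gcgcgtccGTTGCCaaggccgc
Arl13b, chr16:62847208-62847229, minus strand: acgctccaGTTGCCtagttacc

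Members with and without the motif are described by their fold changes of DCKO over Control, given on the log2 scale. The median was -0.21 for the 11 members with the palindromic form, of which Bbs1 and Nphp4 fell, and -0.12 for the 28 members without it, of which 1 rose and 6 fell. For the short form the medians were -0.12 in the 22 members with it and -0.36 in the 17 without it. A match describes the letters of these windows and not a bound site.

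In DCKO neural tubes, 8 of the 46 cilium genes fell, 1 rose and 37 did not pass the threshold in edgeR's quasi-likelihood test, adjusted by Benjamini-Hochberg over all 19207 genes tested. Bbs1, Traf3ip1, Kif3b, Rpgrip1l, Ift27, Ift74, Nphp4 and Ift140 were lower and Arl13b was higher. That is 19.6% of the members, against 17.0% of all tested genes, of which 8.93% were higher and 8.11% lower. The share was thus near the background, while the calls ran 8 lower to 1 higher, against 1558 lower to 1716 higher over all genes (3744 and 1219 with scaling by library totals). The median log2 fold change was -0.09 in the members and 0.03 in all tested genes. An unadjusted p under 0.05 was reached by 15 members (background 35.9%). The DCKO and Control values did not overlap in 36 members, 18 with DCKO above and 18 with DCKO below, where 66.4% of all tested genes did not overlap (33.6% with DCKO above and 32.9% below). The summed level of all members was 994 and 918 CPM in DCKO and 1033 and 1006 CPM in Control. Of the 9 calls, 0 held when either Control library was left out, with adjusted p between 0.0772 and 0.262 without Control 1 and between 0.0705 and 0.238 without Control 2, whereas all 9 held without either DCKO library. A further 1 member passed without DCKO 1 and a further 6 without DCKO 2. In DESeq2, 13 members passed (10 lower and 3 higher, background 27.1%), among them the 9 above and Bbs12, Tmem216 and Ift52. The authors' deposited table, which lists 45 of the members, gives 11 past a false discovery rate of 0.05 (9 lower and 2 higher, background 28.8%), among them the 9 above and Bbs12.

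**Figure D2:**
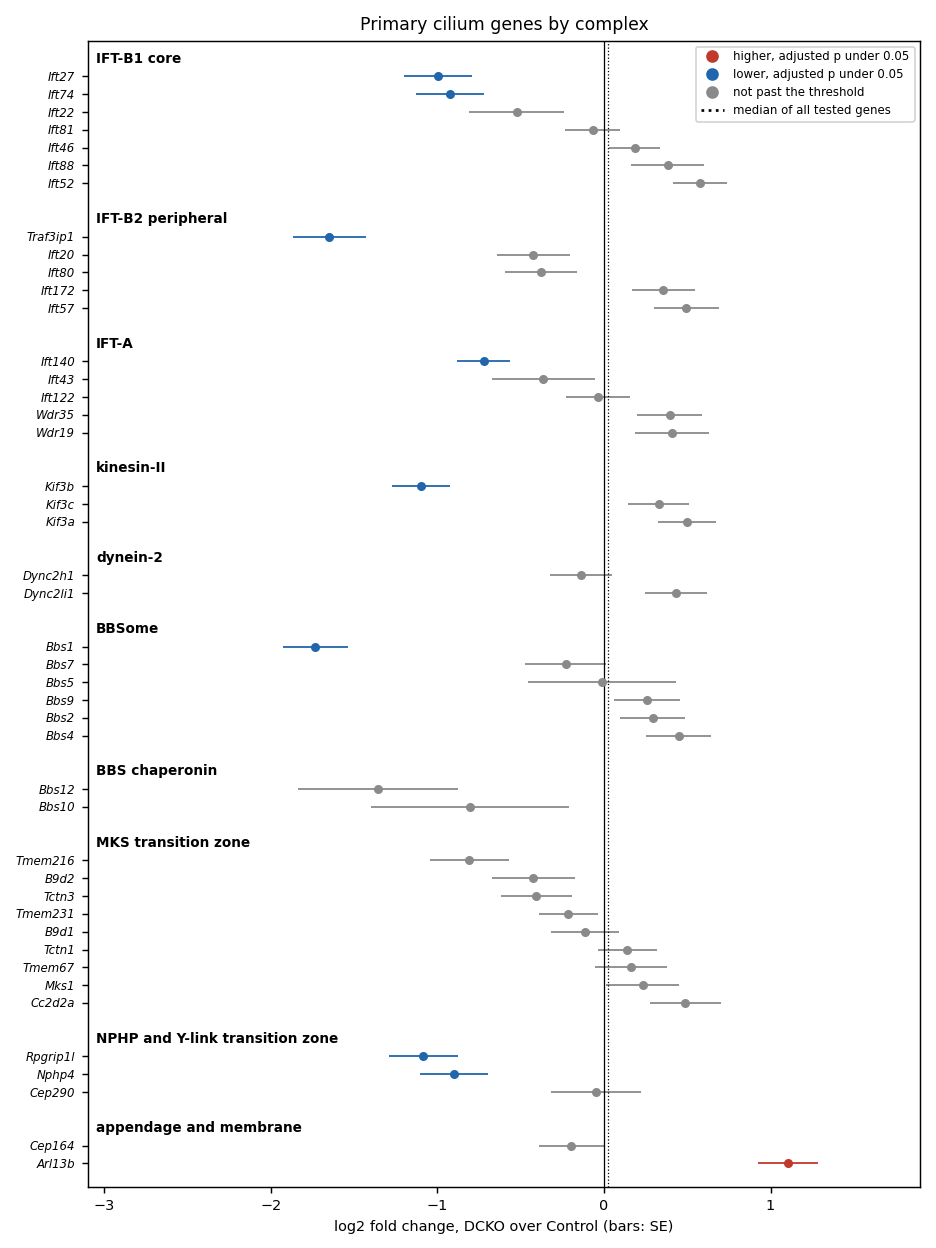
Fitted log2 fold change of DCKO over Control for each of 44 of the cilium genes, grouped by complex, with bars of 1 SE (2 libraries per group); blue and red mark genes past the adjusted p threshold of 0.05 and the dotted line the median of all tested genes. Of the 10 groups, 7 hold at least 1 gene past the threshold, and in the NPHP and Y-link group the genes shown run from -1.08 (Rpgrip1l) to -0.05 (Cep290).

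The IFT-B1 core builds the backbone of the anterograde train. Of its 7 genes, Ift27 and Ift74 fell and the other 5 did not pass, where 17.0% of all tested genes were called. Ift27 (ENSMUSG00000016637, chromosome 15, 78159463 to 78174107, minus strand), a small GTPase that helps BBSome cargo leave the cilium, had 23.9 and 20.1 CPM in DCKO and 38.3 and 49.7 CPM in Control. Both DCKO libraries were below both Control libraries (log2 fold change -0.998, SE 0.20, adjusted p = 0.0314). Ift74 (ENSMUSG00000028576, chromosome 4, 94614491 to 94693229, plus strand), which with Ift81 forms a tubulin-binding module, had 22.4 and 19.1 CPM in DCKO and 44.6 and 34.3 CPM in Control, again without overlap (-0.92, SE 0.20, adjusted p = 0.0371). Its partner Ift81 had 29.4 and 27.6 CPM in DCKO and 31.9 and 27.8 CPM in Control (-0.07, adjusted p = 0.802). Ift52, a subunit that ties the core to the peripheral complex, had 64.2 and 55.7 CPM in DCKO and 41.7 and 38.8 CPM in Control (0.58, SE 0.16, adjusted p = 0.0653, 0.0262 in DESeq2, and from 0.0380 without DCKO 2 to 0.375 without Control 2). Its values did not overlap between groups. Ift88, the core subunit mutated in the Oak Ridge polycystic kidney mouse, had 25.4 and 19.7 CPM in DCKO and 19.0 and 15.6 CPM in Control (0.38, adjusted p = 0.266). Ift46 (0.18) and the Rab-like GTPase Ift22 (-0.52) were also short of the threshold. Without Control 1 the adjusted p was 0.103 for Ift27 and 0.262 for Ift74, and without Control 2 it was 0.199 for Ift27 and 0.117 for Ift74.

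In the peripheral IFT-B2 complex, which links the train to kinesin-II, 1 of 5 genes fell (20% called, against 17.0% of all tested genes). Traf3ip1 (IFT54, ENSMUSG00000034292, chromosome 1, 91494647 to 91529307, plus strand), a microtubule-binding subunit, had 4.60 and 5.003 CPM in DCKO and 14.7 and 15.5 CPM in Control. The DCKO level was 31.9% of the Control level, with little spread within either group (-1.65, SE 0.22, adjusted p = 0.0135, 0.0910 without Control 1 and 0.102 without Control 2). Ift20, which partners Traf3ip1 and also acts at the Golgi, had 9.49 and 11.3 CPM in DCKO and 12.9 and 14.9 CPM in Control (-0.42, adjusted p = 0.224). Ift57 had 14.1 and 14.6 CPM in DCKO and 10.4 and 9.97 CPM in Control (0.49, adjusted p = 0.138). Ift172, the largest peripheral subunit, had 51.0 and 39.4 CPM in DCKO and 36.3 and 34.4 CPM in Control (0.36, adjusted p = 0.231). Ift80 had 33.1 and 23.7 CPM in DCKO and 39.0 and 34.9 CPM in Control (-0.38, adjusted p = 0.260). For all 5 genes the groups did not overlap, 3 with DCKO below and 2 with DCKO above. Of all tested genes, 66.4% did not overlap either (33.6% with DCKO above and 32.9% below).

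IFT-A carries cargo back to the base and brings membrane proteins in with Tulp3. Ift140 (ENSMUSG00000024169, chromosome 17, 25016085 to 25099495, plus strand), a core subunit, had 34.1 and 32.3 CPM in DCKO and 57.8 and 51.9 CPM in Control, without overlap, and fell (-0.72, SE 0.16, adjusted p = 0.0359, 0.260 without Control 1 and 0.169 without Control 2). The other 4 subunits did not pass, so that 20% were called, against 17.0% of all tested genes. The core subunit Ift122 had 34.0 and 26.1 CPM in DCKO and 29.9 and 31.8 CPM in Control (-0.04, adjusted p = 0.913), with overlapping groups. Wdr19 (IFT144) had 26.5 and 21.5 CPM in DCKO and 20.4 and 15.7 CPM in Control (0.41, adjusted p = 0.245). Wdr35 (IFT121) had 35.02 and 44.4 CPM in DCKO and 32.6 and 27.7 CPM in Control (0.40, adjusted p = 0.206). Both were above Control in both DCKO libraries, while Ift43 had a wide spread between the Control libraries (12.4 and 12.8 CPM in DCKO, 11.7 and 20.8 CPM in Control).

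Of the motors, Kif3b fell. Kinesin-II is a trimer in which Kif3a pairs with either Kif3b, the usual ciliary partner, or Kif3c, which is abundant in neurons. Kif3b (ENSMUSG00000027475, chromosome 2, 153291413 to 153333390, plus strand) had 14.0 and 15.6 CPM in DCKO and 31.0 and 32.5 CPM in Control, without overlap (-1.10, SE 0.17, adjusted p = 0.0182, 0.128 without Control 1 and 0.138 without Control 2). Kif3a had 42.7 and 35.1 CPM in DCKO and 27.9 and 27.3 CPM in Control (0.50, SE 0.17, adjusted p = 0.105). Kif3c had 47.0 and 41.1 CPM in DCKO and 31.5 and 38.7 CPM in Control (0.33, SE 0.18, adjusted p = 0.253), and 35.3% of its exon bases lie under the antisense gene 1110002L01Rik, so that without strand in the counting its value is uncertain. On the TPM scale, which allows genes to be compared, Kif3b made up 25.8% and 29.4% of Kif3b plus Kif3c in DCKO, against 53.7% and 49.5% in Control. The mean shares were 27.6% ± 2.58 in DCKO and 51.6% ± 2.97 in Control (SD, n = 2 each), and the exact permutation test gives a two-sided p of 0.333, the smallest that 2 against 2 libraries allow. The retrograde motor dynein-2 had 0 of 2 genes called in edgeR's quasi-likelihood test, 0 with an unadjusted p under 0.05 and 0 in DESeq2. Its heavy chain Dync2h1 had 53.1 and 46.9 CPM in DCKO and 61.3 and 48.6 CPM in Control (-0.14, adjusted p = 0.638), and its light intermediate chain Dync2li1 had 22.1 and 20.4 CPM in DCKO and 14.7 and 16.8 CPM in Control (0.43, adjusted p = 0.163).

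**Figure D3:**
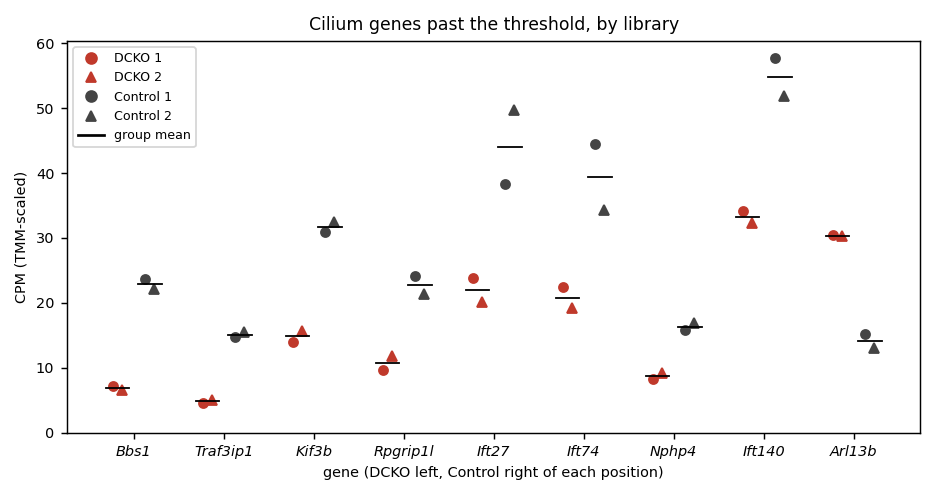
CPM of the 9 cilium genes past the adjusted p threshold in each library, DCKO (red) left and Control (grey) right at each gene, with horizontal lines at the group means of 2 libraries. For Bbs1, Traf3ip1, Kif3b, Rpgrip1l, Ift27, Ift74, Nphp4 and Ift140 both DCKO points lie below both Control points, and for Arl13b the DCKO points, at 30.4 and 30.3 CPM, lie above.

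A subunit of the BBSome had the largest fall among the 46 genes. It was 1 of 6 subunits called (16.7%), near the 17.0% of all tested genes. Bbs1 (ENSMUSG00000006464, chromosome 19, 4886878 to 4906628, minus strand), the subunit through which the small GTPase Arl6 recruits the BBSome to membranes, had 7.14 and 6.63 CPM in DCKO and 23.6 and 22.2 CPM in Control. The DCKO level was 30.1% of the Control level, without overlap (-1.73, SE 0.20, adjusted p = 0.00988, 0.0772 without Control 1 and 0.0705 without Control 2). The palindromic X-box match of Bbs1 printed above lies just after its start. The other 5 subunits did not pass: Bbs4 had 14.0 and 14.0 CPM in DCKO and 10.4 and 10.1 CPM in Control (0.45, adjusted p = 0.168), and Bbs2 had 17.5 and 15.2 CPM in DCKO and 13.3 and 13.4 CPM in Control (0.29, adjusted p = 0.333). Bbs9 had 21.1 and 17.1 CPM in DCKO and 15.9 and 16.0 CPM in Control (0.26, adjusted p = 0.397). Bbs7, whose window also holds the palindromic X-box, had 8.07 and 10.8 CPM in DCKO and 11.1 and 11.0 CPM in Control (-0.23, adjusted p = 0.534). Bbs5 had the smallest change of all members, with 2.02 and 3.84 CPM in DCKO and 3.46 and 2.45 CPM in Control (-0.01, SE 0.44, adjusted p = 0.986). As a share of the summed TPM of the 6 subunits, Bbs1 made up 5.11% and 4.84% in DCKO and 16.2% and 15.8% in Control. The mean shares were 4.97% ± 0.189 in DCKO and 16.0% ± 0.297 in Control (SD, n = 2 each), with an exact two-sided permutation p of 0.333, again the smallest possible.

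**Figure D4:**
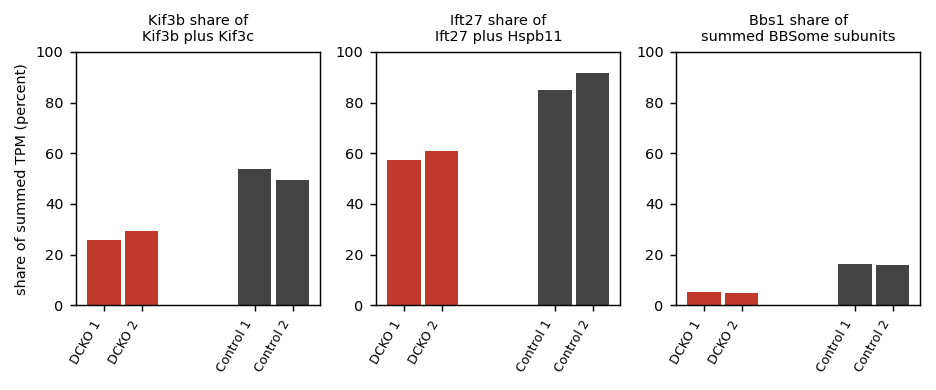
Share of summed TPM, in percent, held by Kif3b within Kif3b plus Kif3c, by Ift27 within Ift27 plus Hspb11, and by Bbs1 within the 6 BBSome subunits, with 1 bar per library and DCKO left of Control. Each share is lower in both DCKO libraries, for example 5.11% and 4.84% for Bbs1 in DCKO against 16.2% and 15.8% in Control. The shares were formed for genes called lower, and Hspb11 was called higher, so they are not separate evidence of a fall.

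The chaperonin-like proteins that assemble the BBSome had 0 of 2 genes called in edgeR's quasi-likelihood test, 1 with an unadjusted p under 0.05 and 1 in DESeq2. Bbs12 had 1.80 and 4.46 CPM in DCKO and 9.02 and 7.03 CPM in Control (-1.36, SE 0.48, adjusted p = 0.107), and Bbs10 had 1.67 and 5.95 CPM in DCKO and 7.09 and 6.20 CPM in Control (-0.80, SE 0.59, adjusted p = 0.380). In both genes DCKO 1 stood well below the other 3 libraries. Their values rest on that library: the log2 fold change was -2.16 for Bbs12 (adjusted p = 0.00872) and -1.99 for Bbs10 (0.0104) without DCKO 2, and -0.85 for Bbs12 (0.0881) and -0.17 for Bbs10 (0.688) without DCKO 1. Bbs10 and Bbs12 were the 2 members with at most 2 exons, and over 1125 such protein-coding genes the median log2 difference of DCKO 1 from DCKO 2 was -0.21, against 0.04 over 13567 genes with more exons. The part of that pattern in their values was not tested.

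In the MKS module of the transition zone, a membrane-associated gate, 0 of 9 genes were called in edgeR's quasi-likelihood test, 1 had an unadjusted p under 0.05 and 1 passed in DESeq2. Both of these were Tmem216, a membrane protein with a palindromic X-box match, which had 10.5 and 7.82 CPM in DCKO and 15.5 and 16.5 CPM in Control (-0.81, SE 0.23, adjusted p = 0.0692, and 0.0192 in DESeq2). With a library left out its adjusted p was 0.0197 without DCKO 1, 0.0718 without DCKO 2, 0.288 without Control 1 and 0.303 without Control 2. Cc2d2a, a C2-domain protein of the module, had 30.6 and 22.4 CPM in DCKO and 18.7 and 19.1 CPM in Control (0.49, adjusted p = 0.165). Tctn3 had 10.5 and 9.09 CPM in DCKO and 13.2 and 12.8 CPM in Control (-0.41, adjusted p = 0.227). The other 6 ranged from -0.42 (B9d2) to 0.23 (Mks1), with B9d1 at -0.11, Tmem231 at -0.21, Tctn1 at 0.14 and Tmem67, the receptor-like meckelin, at 0.16. Tctn1 shares 19.0% of its exon bases with another gene, Hvcn1. Tctn2, left out as it is not protein-coding in M21, had 709 and 606 counts in DCKO and 1646 and 1223 counts in Control (-0.56, SE 0.18, adjusted p = 0.0815).

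The NPHP and Y-link module, which joins the axoneme to the gate, had 2 of 4 genes lower and none higher. Over all tested genes 8.11% were lower and 8.93% higher. Rpgrip1l (ENSMUSG00000033282, chromosome 8, 91217030 to 91313262, minus strand), a scaffold on which other gate proteins assemble, had 9.62 and 11.8 CPM in DCKO and 24.1 and 21.3 CPM in Control (-1.08, SE 0.21, adjusted p = 0.0281). Nphp4 (ENSMUSG00000039577, chromosome 4, 152476706 to 152563183, plus strand), which binds Rpgrip1l, had 8.19 and 9.25 CPM in DCKO and 15.7 and 16.9 CPM in Control (-0.90, SE 0.21, adjusted p = 0.0401). Neither gene overlapped between groups. Cep290, the large Y-link protein, had 15.2 and 13.3 CPM in DCKO and 17.9 and 11.6 CPM in Control, with the DCKO values between those of Control (-0.05, adjusted p = 0.919). Without Control 1 the adjusted p was 0.200 for Rpgrip1l and 0.222 for Nphp4, and without Control 2 it was 0.139 for Rpgrip1l and 0.238 for Nphp4. From TPM, limma with a pseudocount of 1 gave adjusted p values of 0.0594 for Rpgrip1l and 0.0540 for Nphp4.

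Arl13b was the only member that rose. Arl13b (ENSMUSG00000022911, chromosome 16, 62793685 to 62847040, minus strand), a small GTPase of the ciliary membrane that activates Arl3 and is needed for normal Hedgehog signalling in the mouse neural tube, had 30.4 and 30.3 CPM in DCKO and 15.2 and 12.97 CPM in Control. The DCKO level was 2.15-fold that of Control, without overlap (1.11, SE 0.18, adjusted p = 0.0199, 0.120 without Control 1 and 0.172 without Control 2). Cep164, the distal appendage protein that docks the mother centriole, had 21.9 and 28.3 CPM in DCKO and 29.3 and 28.2 CPM in Control (-0.20, adjusted p = 0.510).

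Lists of related genes that the name rule does not take were set beside the members. Of 26 further subunits of the same complexes, 3 fell and 1 rose, with a median log2 fold change of -0.19. Hspb11 (IFT25), the obligate partner of Ift27, had 11.0 and 8.09 CPM in DCKO and 4.21 and 2.80 CPM in Control and rose (1.44, SE 0.33, adjusted p = 0.0418), opposite in sign to Ift27. On the TPM scale Ift27 made up 57.3% and 60.8% of Ift27 plus Hspb11 in DCKO and 84.99% and 91.7% in Control (59.0% ± 2.49 in DCKO and 88.4% ± 4.77 in Control, SD, n = 2 each, exact permutation p = 0.333, the smallest possible). Mkks (BBS6), the third chaperonin-like protein, had 3.07 and 4.46 CPM in DCKO and 12.05 and 13.7 CPM in Control (-1.78, SE 0.29, adjusted p = 0.0190), although it shares 29.3% of its exon bases with an overlapping gene on the same strand. Ttc30a1 (IFT70) fell by 1.69 on the log2 scale (adjusted p = 0.0272), but has near-identical paralogs among which counts may be split. Ttc26 (IFT56) had 13.8 and 16.3 CPM in DCKO and 27.8 and 24.7 CPM in Control (-0.80, SE 0.19, adjusted p = 0.0451). Of these 4 calls 0 held without either Control library, with adjusted p between 0.0981 and 0.297 without Control 1 and between 0.119 and 0.233 without Control 2. Without DCKO 1, Hspb11 (0.0532) and Ttc26 (0.0519) also missed the threshold. With library totals the list had 7 lower and none higher. Over all 19207 tested genes the lower calls were 1558 in edgeR, 2594 in DESeq2 and 3744 with library totals. Among 20 basal body and ciliogenesis genes, 1 was called in edgeR, 4 in DESeq2 and 8 with library totals, all lower. The one called, Cby1, a distal appendage protein, fell (14.2 and 16.4 CPM in DCKO, 27.5 and 36.9 CPM in Control, -1.07, SE 0.22, adjusted p = 0.0308, 0.1004 without Control 1 and 0.201 without Control 2).

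Of 14 genes for ciliary membrane cargo and its carriers, 13 could be tested, 3 fell and 1 rose, and Sstr3 had 0 counts in every library. Among all tested genes 8.11% fell and 8.93% rose. Gpr161, a ciliary receptor that restrains Hedgehog signalling, had 8.04 and 9.71 CPM in DCKO and 32.1 and 34.4 CPM in Control and fell (-1.91, SE 0.20, adjusted p = 0.00854). Tulp3, the adaptor that brings Gpr161 into the cilium with IFT-A, had 57.1 and 63.4 CPM in DCKO and 36.3 and 31.3 CPM in Control and rose (0.84, SE 0.17, adjusted p = 0.0302). Its relative Tub fell by 1.39 (adjusted p = 0.0326), as did Unc119b, a carrier of myristoylated proteins, by 1.42 on the log2 scale (adjusted p = 0.0138). The rise of Tulp3 was not called with library totals. Of these 4 calls 0 held without either Control library (adjusted p between 0.0519 and 0.153 without Control 1 and between 0.0609 and 0.233 without Control 2).

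Genes that hold back or take down the cilium had 4 of 11 lower and none higher (8 lower with library totals), with a median of -0.57. The shares over all tested genes were 8.11% lower and 8.93% higher. Cep97 (10.1 and 11.5 CPM in DCKO, 34.7 and 26.5 CPM in Control, -1.50, SE 0.22, adjusted p = 0.0163) and its partner Ccp110 (16.6 and 18.1 CPM in DCKO, 32.8 and 30.6 CPM in Control, -0.87, SE 0.17, adjusted p = 0.0285) cap the mother centriole until a cilium forms. Kif24, a kinesin that works with Ccp110, fell by 0.81 (adjusted p = 0.0468), and the kinase Aurka, which promotes disassembly and is also a mitotic kinase, by 0.68 on the log2 scale (adjusted p = 0.0382). Without Control 1 the adjusted p of these calls ran from 0.112 to 0.285 and without Control 2 from 0.0673 to 0.197. Kif24 was also lost without DCKO 1 (0.0543) and Aurka without DCKO 2 (0.0510).

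The transcription factors that bind the X-box or drive motile cilia had 2 of 7 lower, where 8.11% of all tested genes were lower. Rfx4, a factor of the neural tube, had 24.2 and 25.2 CPM in DCKO and 89.3 and 71.2 CPM in Control (-1.70, SE 0.18, adjusted p = 0.00927, 0.0548 without Control 1 and 0.0419 without Control 2). It was also among the neural progenitor markers. Rfx5, known for regulating major histocompatibility genes, fell by 1.35 on the log2 scale (adjusted p = 0.0450, 0.282 without Control 1 and 0.193 without Control 2), and 26.8% of its exon bases lie under an antisense gene. Among 18 motile cilium genes 0 were called in edgeR's quasi-likelihood test, 4 had an unadjusted p under 0.05 and 1 (Tekt1) passed in DESeq2. Without DCKO 1 the count was 6 lower, and with library totals it was 2 lower. Their median was -0.50, and Mcidas, which had the smallest p among them, had 0.150 and 0.108 CPM in DCKO and 0.399 and 0.810 CPM in Control (-2.20, SE 0.69, adjusted p = 0.0831).

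Hedgehog components that act at or near the cilium had 3 of 13 lower and 2 higher, with a median of -0.27. In all tested genes the shares were 8.11% lower and 8.93% higher. The ligand-binding Hhip, itself a Hedgehog target, had 19.3 and 15.2 CPM in DCKO and 5.97 and 5.81 CPM in Control (1.55, SE 0.23, adjusted p = 0.0168), and the co-receptor Cdon had 214 and 229 CPM in DCKO and 102 and 82.5 CPM in Control (1.26, SE 0.18, adjusted p = 0.0152). Sufu, which holds Gli proteins back, had 31.5 and 37.7 CPM in DCKO and 80.5 and 68.5 CPM in Control (-1.11, SE 0.18, adjusted p = 0.0200). The co-receptor Boc fell by 0.80 (adjusted p = 0.0262), as did Smo, the transducer that enters the cilium, by 0.64 on the log2 scale (adjusted p = 0.0414), which was named after its value was seen. Of these 5 calls 0 held without either Control library (adjusted p between 0.0703 and 0.254 without Control 1 and between 0.0878 and 0.207 without Control 2), and Smo was lost without DCKO 1 (0.0577).

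**Figure D5:**
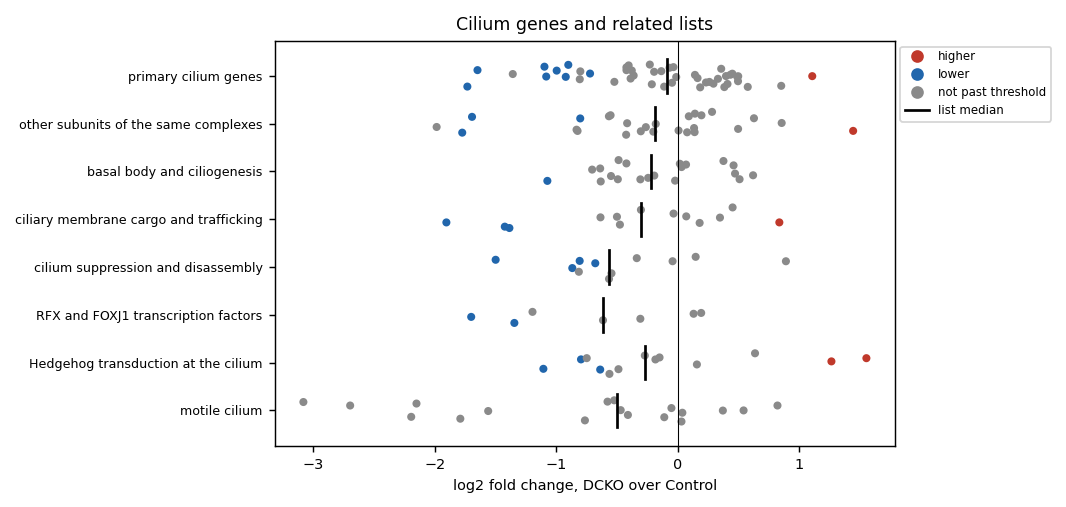
Log2 fold change of DCKO over Control for each tested gene of the cilium set and 7 related lists, with blue and red for genes past the adjusted p threshold of 0.05 and black bars at list medians. The cilium set has its median at -0.09, and the lists of suppression and disassembly genes and of RFX and FOXJ1 factors have theirs at -0.57 and -0.62.

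Markers of several cell types moved with the groups, where 8.11% of all tested genes fell and 8.93% rose. Of 12 neural progenitor markers 9 fell (summed level 2730 and 2171 CPM in DCKO, 3550 and 3957 CPM in Control), and of 13 neuron markers 7 fell (594 and 265 CPM in DCKO, 1114 and 1392 CPM in Control). All 9 surface ectoderm markers rose (334 and 449 CPM in DCKO, 15.5 and 17.8 CPM in Control), as did 8 of 11 cranial mesenchyme markers (3621 and 1663 CPM in DCKO, 553 and 565 CPM in Control). The tissue label thus had its neural markers present in every library, beside more RNA of surface ectoderm and mesenchyme markers in the DCKO libraries. Endothelial markers rose in 6 of 8 (833 and 477 CPM in DCKO, 169 and 158 CPM in Control) and pericyte markers in 5 of 6 tested (421 and 657 CPM in DCKO, 49.998 and 46.6 CPM in Control). Erythroid markers fell in 6 of 8 (890 and 655 CPM in DCKO, 2534 and 3764 CPM in Control), neural crest markers rose in 2 of 6 tested (145 and 204 CPM in DCKO, 78.7 and 71.8 CPM in Control), and macrophage markers had 0 of 7 called in edgeR's quasi-likelihood test, 0 with an unadjusted p under 0.05 and 0 in DESeq2 (55.8 and 17.8 CPM in DCKO, 22.1 and 25.3 CPM in Control). Of the calls made with all libraries, those that held without Control 1 and without Control 2 were 3 and 4 of 9 in neural progenitor markers, 3 and 3 of 7 in neuron markers, 7 and 5 of 9 in surface ectoderm markers and 0 and 1 of 8 in mesenchyme markers. In endothelial markers 1 and 0 of 6 held, in pericyte markers 3 and 1 of 5, in erythroid markers 4 and 1 of 6 and in neural crest markers 0 and 0 of 2. The part of these shifts in the cilium gene results was not tested, and in bulk tissue fewer cells of a type and less RNA per cell cannot be told apart.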

How the data were processed

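The authors deposited whole-number read counts per Ensembl gene in 4 libraries, without scaling, a TPM value per gene and library, and a table of log2 fold changes, p-values and false discovery rates. Builds mm10 and GRCm38 are named in the submitters' processing notes, as are the tools R 3.3.2, limma 3.30.13, edgeR 3.16.5, TopHat2 2.1.1 and StringTie (version not given in the sources used here). How the counts were made, and whether strand was used, is not given in the sources used here, so overlapping genes are uncertain. Of the 46 members, 10 share exon bases with another gene, but 0 of the 9 called ones do. Per the labels, libraries were made with a stranded kit.

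Counts were tested with edgeR 4.0.16 in R 4.3.3: filterByExpr (minimum count 10, minimum total 15) kept 19207 genes, libraries were scaled by TMM (factors 0.888 and 0.885 for DCKO, 1.14 and 1.12 for Control), and the quasi-likelihood test of group had 2 residual degrees of freedom. Tests are two-sided, with Benjamini-Hochberg adjustment over all tested genes and a threshold of 0.05. The SE is the absolute log2 fold change over the square root of F. CPM use TMM-scaled totals. The fit was also run on simulated counts. These were drawn with dispersions estimated from these data, so that run cannot show that the fit suits them.

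The members, complexes, lists and markers were chosen with earlier results of these data known. The named genes were Lats1, Lats2, every called member, the member with the smallest p in each complex without a call, the 3 highest and 3 lowest by TPM, the member with the smallest change, and up to 4 called genes of each related list, or the one with the smallest p. Other members and genes with values were added after these were seen. All 4 libraries entered the fit. Of the members, 2 are not reported here by name and are counted only in totals.

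Alternatives were other scalings and filters, DESeq2 1.42.0, limma 3.58.1 on voom weights or on log2(TPM + 1) or log2(TPM + 0.1), each library left out, and a replicate block. Libraries correlated at 0.966 (Spearman) between the DCKO pair, 0.983 between the Control pair and 0.921 to 0.928 between groups. The labels do not say more of the embryos than that they are separate samples. A p-value of the main test sets the group difference against the variation between libraries of a group. The fit estimates that variation with information from all genes. Promoters come from RefSeq (GRCm38.p6), and gene positions from GENCODE M21 (GRCm38).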

Additional observations from a re-analysis of the deposited data

How the results depend on the processing

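Of the 9 called cilium genes, all stayed past the threshold with other scalings and count filters, in DESeq2 and in limma-voom. The count of higher members, 1, was 3 in DESeq2 and 0 in limma on log2(TPM + 1) with no filter, and 0 to 5 when a library was left out. The count of lower members, 8, was 4 on log2(TPM + 0.1), 0 on log2(TPM + 1) with no filter, and 0 to 10 when a library was left out. Without Control 1 or Control 2, edgeR's quasi-likelihood test called 0 members, with 7 and 10 at an unadjusted p under 0.05. Then the lone Control library is assumed to vary like the DCKO pair, and the 245 higher and 138 lower calls over all genes without Control 1, and 155 and 72 without Control 2, were also far fewer than the 1716 and 1558 with all libraries. The cause of the lost calls was not tested.

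The median of the members, -0.09, was -0.14 with DESeq2 size factors, -0.049 with upper-quartile factors, -0.44 with library totals, -0.28 on log2(TPM + 1) with and without a filter, -0.30 on log2(TPM + 0.1), and -0.23 to -0.030 when a library was left out. The median of all genes, 0.03, was -0.32 with library totals, -0.19 on log2(TPM + 1) with a filter but -0.031 without one, -0.21 on log2(TPM + 0.1) and 0.046 without Control 2, the library whose absence gave -0.23 in the members. Lists of related genes had more lower calls with library totals, for example 8 against 1 for basal body genes. Over all tested genes the lower calls were 3744 with library totals, against 1558 with TMM scaling. Uncalled members of small change reversed: with upper-quartile factors Ift122 (0.0056) and Bbs5 (0.029); with library totals Mks1 (-0.12), Tmem67 (-0.19), Ift46 (-0.16), Bbs9 (-0.089), Kif3c (-0.018), Tctn1 (-0.21) and Bbs2 (-0.056); on log2(TPM + 1) Tmem67 (-0.074) and Bbs9 (-0.15) and on log2(TPM + 0.1) Tmem67 (-0.083) and Bbs9 (-0.16). With libraries left out in turn, Bbs5 ran from -0.55 to 0.37, Ift122 from -0.25 to 0.14, Cep290 from -0.36 to 0.30, Ift81 from -0.20 to 0.028, Dync2h1 from -0.33 to 0.036, B9d1 from -0.27 to 0.023 and Ift43 from -0.73 to 0.074.

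Libraries with the same number in the labels did not deviate together over the tested genes (correlation -0.03). With 2 libraries per group this value cannot exclude a pairing, and the labels do not name one. With the replicate number as a block, the count of lower members was 3, and Ift140, Ift27, Ift74, Nphp4 and Rpgrip1l missed the threshold (adjusted p of the 9 called members between 0.0252 and 0.0926). The block leaves 1 residual degree of freedom. With 2 embryos per group, the differences of uncalled members were not resolved in edgeR's quasi-likelihood test. Some were larger than called ones: the log2 fold change was -1.36 for the uncalled Bbs12 and -0.72 for the called Ift140.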
